A study of Mus musculus with 8 samples.

Results

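The genes described here encode the signal recognition particle and its receptor, and they include 3 mouse genes for the particle's 54 kDa subunit, Srp54a, Srp54b and Srp54c. They were chosen by name and are 10 of the 20681 genes of the table, and all 10 passed the filter on low values. Besides the Srp54 copies they comprise 5 genes of other particle subunits (Srp9, Srp14, Srp19, Srp68 and Srp72) and 2 receptor genes (Srpr and Srprb). The set was drawn up with Srp54b already known to be lower in the libraries labelled knockout, so the differences of these 10 genes between the groups are given as descriptions, with no p-value. Where one of them is said to be called in the fit across all genes, this too is only a description.

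The libraries are messenger RNA of whole knee joints of mice, with 4 libraries in each of the groups labelled control and knockout. The mice of both groups are described as Acan-Cre;Loxl2 fl/fl, in which a Cre recombinase under the aggrecan gene, active in chondrocytes, can delete Loxl2, the gene of a lysyl oxidase that cross-links collagen. The 4 controls are called vehicle-treated in the study's design text and LOXL2wt in the library names, and the other 4 are called LOXL2ko. DMM stands in every library name without being explained there, and post-traumatic injury is named in the title of the series, so any such injury is shared by both groups. The age and sex of the mice and the vehicle are not given in the sources used here. Nothing says whether each library came from a separate mouse, so p-values measure the spread between these samples, which may be technical.

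Most secreted proteins and many membrane proteins carry a signal sequence that the particle binds as it leaves the ribosome. The particle, which is built on the 7SL RNA, slows translation, docks on its receptor in the endoplasmic reticulum (ER) membrane and hands the ribosome to the Sec61 channel. SRP54 is the subunit that holds the signal sequence and, as a GTPase, pairs with the receptor's own GTPase. Chondrocytes and fibroblasts of a joint send large amounts of collagen and other matrix proteins through this route.

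To see which bases could set the 3 copies apart, their coding sequences were compared in the GENCODE M21 annotation of mm10. The copies lie in a row on the plus strand of chromosome 12, Srp54a at 55080262 to 55115367, Srp54b at 55155104 to 55189573 and Srp54c at 55230168 to 55263836. Their starts are 74842 and 75064 bases apart. Each main transcript has a coding sequence of 1512 bases. Srp54a and Srp54b did not differ at any coding base (0 differences, 100% identity). Srp54c differed from both at 6 bases (99.6% identity), which are T501C, T945C, G946A, T965G, A1197T and G1249A, with positions counted from the first base of the start codon, the base of Srp54a and Srp54b first and that of Srp54c last. These changes fall in 6 codons, and 4 of them change the residue. Whether the mice used here carry the bases of this reference was not tested. The stretches around the differences are printed, with the differing bases in capitals. In the reference they are the coding bases by which a read could be told to come from Srp54c.
Srp54a and Srp54b, coding bases 489 to 513: tactgaaatggaTcctgtcatcatt
Srp54c, coding bases 489 to 513: tactgaaatggaCcctgtcatcatt
Srp54a and Srp54b, coding bases 933 to 977: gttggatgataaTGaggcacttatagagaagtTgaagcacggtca
Srp54c, coding bases 933 to 977: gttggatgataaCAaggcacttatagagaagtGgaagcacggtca
Srp54a and Srp54b, coding bases 1185 to 1209: tttcagtaagcaAccagggagaatc
Srp54c, coding bases 1185 to 1209: tttcagtaagcaTccagggagaatc
Srp54a and Srp54b, coding bases 1237 to 1261: tcaacaagagatGttcaagaacttc
Srp54c, coding bases 1237 to 1261: tcaacaagagatAttcaagaacttc
The first stretch lies in an exon at chr12:55099916-55099940 in Srp54a, chr12:55174976-55175000 in Srp54b and chr12:55250007-55250031 in Srp54c. The second runs across an exon junction. The third is exonic at chr12:55108530-55108554, chr12:55183590-55183614 and chr12:55257453-55257477 in the same order of copies, and the fourth at chr12:55108582-55108606, chr12:55183642-55183666 and chr12:55257505-55257529.

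The stretches that set a copy apart were unequal in number and place. The main transcript of Srp54a was 4498 bases long, against 3646 for Srp54b and 3642 for Srp54c, with 2479, 1625 and 1621 bases after the coding sequence. Every stretch of 100 bases of each main transcript was looked up in the transcripts of all annotated genes. Of the 4399 such windows of Srp54a 27.9% were found in no other gene, against 1.64% of the 3547 of Srp54b and 10.5% of the 3543 of Srp54c. With windows of 150 bases the shares were 29.5%, 3.09% and 14.9%, and with 50 bases 24.8%, 0.17% and 6.12%. The unshared windows of Srp54c lay in the coding sequence (26.3% of its coding windows of 100 bases), and those of Srp54b after it (3.80% of the windows there). When all annotated transcripts of each gene were used, 33.4%, 12.4% and 10.5% of windows of 100 bases were unshared in Srp54a, Srp54b and Srp54c. The authors' treatment of reads that match several genes and the read length are not given in the sources used here, so the copies are set beside their sum throughout. Introns and unannotated sequence were not searched.

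**Figure D1:**
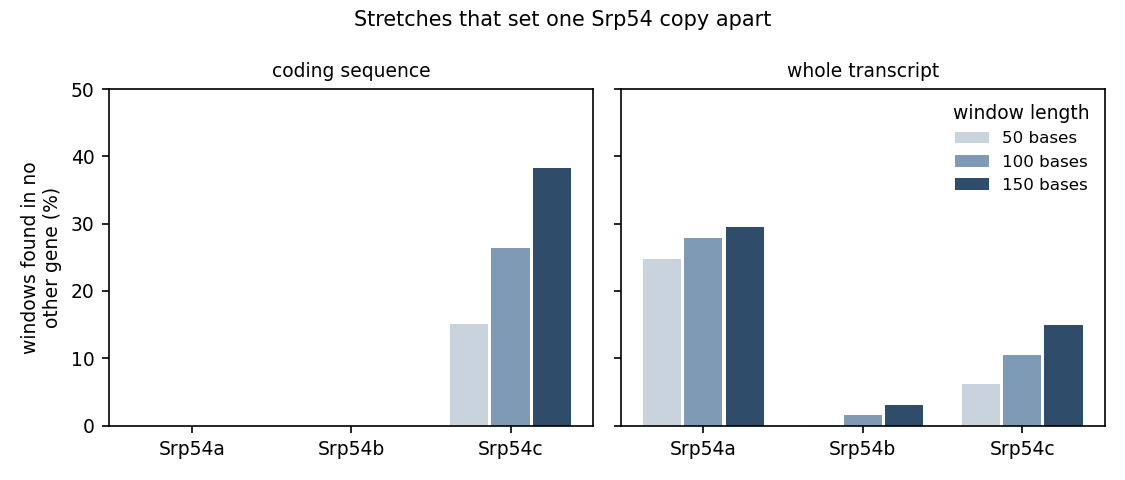
Share of windows of 50, 100 and 150 bases (bars, in percent) of the main transcript of each Srp54 copy that occur in no other annotated gene, for the coding sequence and the whole transcript. Srp54a and Srp54b have no such window in the coding sequence, and Srp54b has 1.64% at 100 bases over the whole transcript.

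Before the values of the copies, the targeted gene was looked at. It cannot check the labels by itself, since the Cre is active in chondrocytes and the libraries are of whole joints. In replicate order, Loxl2 had a normalised read count of 282, 349, 1135 and 311 among the controls and of 893, 1468, 960 and 1518 among the libraries labelled knockout. The groups overlapped, control replicate 3 lying above knockout replicates 1 and 3. Loxl2 was higher, not lower, in the libraries labelled knockout, by 1.44 on the log2 scale (SE 0.40, limma, adjusted p = 0.0294). That call was lost in 8 of 17 alternatives, among them edgeR, DESeq2 and leaving out any 1 of 5 libraries (controls 1, 2 and 4, knockouts 2 and 4). The deposited counts are per gene, and whether the deleted exons were read was not tested. Every direction given here is between the libraries as labelled.

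Library sizes were 13991000 to 17411617 reads, recovered from the deposited values. Of 14949 genes tested, 3461 (23.2%) were called, that is had an adjusted p under 0.05, with 1729 (11.6%) lower and 1732 (11.6%) higher in the libraries labelled knockout. With the libraries scaled instead to their summed reads outside muscle, blood and the 50 highest genes, a choice made after seeing the data, the median gene moved from 0.00 to 0.15 on the log2 scale and 2722 genes were called higher and 775 lower. Markers of several cell types also moved between the groups, in lists likewise drawn up with earlier results of these data known. The 12 skeletal muscle markers summed to 1830272 to 1926636 in the controls and to 934149 to 1297516 in the libraries labelled knockout, and 3 were called by limma, 8 by edgeR and 9 by DESeq2, each time lower. The 10 fibroblast markers summed to 39113 to 119757 and to 162294 to 265155, with 8 called higher, and the 8 macrophage markers to 1429 to 3300 and to 4931 to 6858, with 7 called higher. Of the chondrocyte markers 1 of 7, Hapln1, was called higher, with sums of 3039 to 7877 and 7951 to 12341. The largest part of those sums was Comp (means of 4358 and 7942), which was not called. Neither were Col2a1, Acan and Sox9, and Col9a1 lay at -0.12. Of the plasma cell markers 1 of 6 tested, Sdc1, was called higher, with sums of 1521 to 2692 and 2904 to 3259. The largest part there was Xbp1 (means of 1572 and 1851), which was not called, and Jchain lay at -0.57. By limma, edgeR and DESeq2 0 of 7 erythroid and 0 of 8 neutrophil markers were called (7 and 1 at an unadjusted limma p under 0.05), and their sums overlapped, from 16755 to 98968 and 4040 to 42558 for the former and from 1389 to 5671 and 1113 to 2707 for the latter. No marker was at 0 in every library. The part of these shifts in the values below was not tested, and in whole joints fewer cells of a type and less RNA per cell cannot be told apart.

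Srp54b was the member with the widest gap between the groups. Its normalised read count, in replicate order as for all genes here, was 264, 188, 378 and 133 among the controls and 84.8, 107, 41.3 and 18.5 among the libraries labelled knockout. Every control lay above every library labelled knockout, although the controls themselves spread from 133 to 378. The means were 240 ± 106 and 62.9 ± 40.2 (SD, n = 4 each), a ratio of 3.82 and a log2 difference of -2.09. Its SE was 0.51 in limma, the source of the SE of every single gene here, and 0.64 from the spread within both groups. The coefficient of variation was 44.1% in the controls and 64.0% in the libraries labelled knockout. Within groups the SD of log2 values was 0.91 for Srp54b, above that of 97.8% of the 7248 tested genes with a mean of 50 to 500, whose median was 0.23.

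The other copies did not show the same values. Srp54a, the copy with the longest transcript, had counts of 72.5, 75.7, 90.7 and 83.2 in the controls and 47.9, 72.7, 31.5 and 57.2 in the libraries labelled knockout. The groups overlapped by a narrow margin, knockout replicate 2 lying just above control replicate 1. The means were 80.5 ± 8.13 and 52.3 ± 17.2 (SD, n = 4 each), a log2 difference of -0.67 (SE 0.25), and without knockout replicate 2 it was -0.84, with which the gene was called. Srp54c, the copy with coding bases of its own, had 279, 191, 188 and 170 against 181, 199, 177 and 243. Its groups overlapped widely, with means of 207 ± 49.0 and 200.0 ± 30.2 and a log2 difference of -0.03 (SE 0.17). Its sign depended on the library left out, from -0.13 to 0.12, and on the scaling, with 0.12 under scaling to summed reads.

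**Figure D2:**
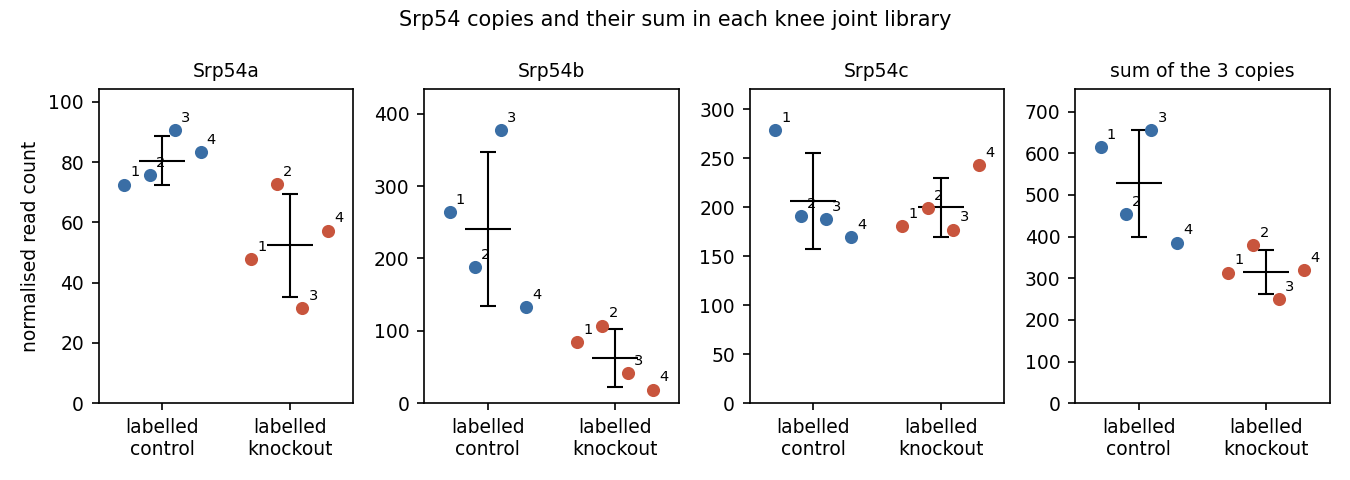
Normalised read count of Srp54a, Srp54b, Srp54c and of their sum in the 4 control and 4 knockout libraries (points, numbered by replicate), with the mean and SD of each group as bars. Srp54b and the sum separate the groups (133 against 107 and 386 against 379 at the nearest), while Srp54a and Srp54c overlap.

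The sum of the copies does not depend on how reads counted once were divided among them. Reads left uncounted for matching several copies would be missing from it, and reads counted in several copies would enter it more than once. The sum was 615, 454, 656 and 386 in the controls and 313, 379, 250 and 319 in the libraries labelled knockout. The groups still did not overlap, but control replicate 4 and knockout replicate 2 were only a few counts apart. The means were 528 ± 129 and 315 ± 52.6 (SD, n = 4 each), a ratio of 1.67 and a log2 difference of -0.72 (SE 0.22 from the spread within both groups). The difference of the sum was therefore smaller than that of Srp54b alone. Adding only Srp54a and Srp54b, whose coding sequences are identical, gave 336, 263, 468 and 216 against 133, 180, 72.9 and 75.7, again without overlap. That pair had a log2 difference of -1.51.

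The share of each copy within a library does not depend on how libraries are scaled to each other. Of the recovered reads of the 3 copies, Srp54b took 244 of 569 in control replicate 1 (42.9%, Wilson 95% interval 38.9% to 47.0%) and 186 of 450 in control replicate 2 (41.3%, 36.9% to 45.9%). It took 404 of 702 in control replicate 3 (57.5%, 53.9% to 61.2%) and 121 of 352 in control replicate 4 (34.4%, 29.6% to 39.5%). The intervals of control replicates 3 and 4 did not overlap, so the controls differed among themselves by more than the counting error, which is all these intervals cover. In the libraries labelled knockout Srp54b took 85 of 314 (27.1%, 22.5% to 32.2%), 125 of 443 (28.2%, 24.2% to 32.6%), 38 of 230 (16.5%, 12.3% to 21.9%) and 21 of 362 (5.8%, 3.8% to 8.7%) in replicates 1 to 4. Knockout replicate 4 had the lowest share and, at 243, the highest Srp54c count of its group. The mean share of Srp54b was 44.0% ± 9.74 in the controls and 19.4% ± 10.5 in the libraries labelled knockout (SD, n = 4 each), a difference of -24.6 percentage points. The share of Srp54c was 40.0% ± 7.70 and 64.3% ± 11.1, with ranges of 28.6% to 45.3% and 52.6% to 76.2%. The share of Srp54a overlapped between the groups, at 11.8% to 21.6% and 12.6% to 19.2%.

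**Figure D3:**
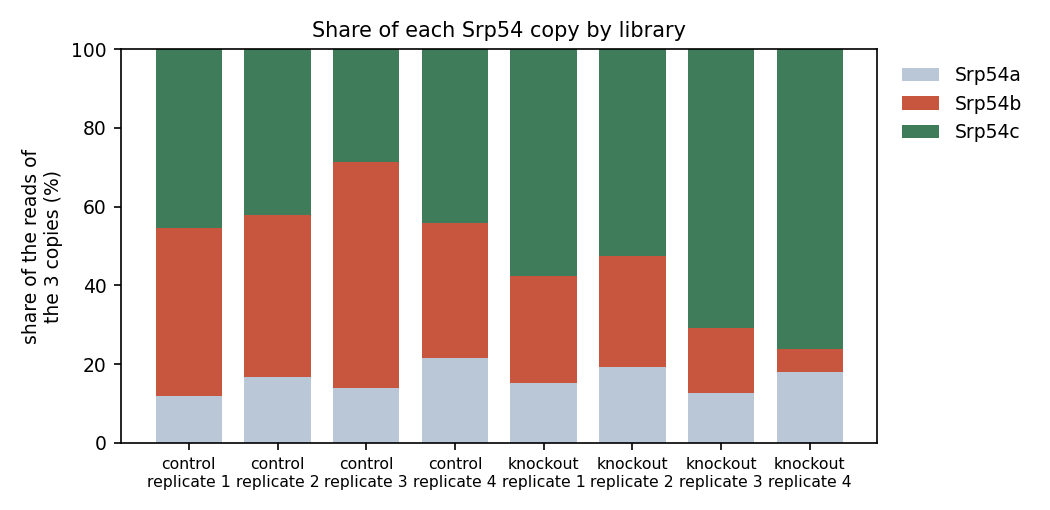
Share of the recovered reads of Srp54a, Srp54b and Srp54c in each library (stacked bars, in percent of the 3 copies together). The Srp54b segment runs from 34.4% to 57.5% in the controls and from 5.8% to 28.2% in the libraries labelled knockout.

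Of the 5 remaining subunit genes of the particle, 4 had log2 differences between -0.07 and 0.20. Srp9 and Srp14 together form the domain that slows translation. Srp9 had counts of 716, 897, 878 and 878 in the controls and 968, 1084, 908 and 898 in the libraries labelled knockout. The groups were separate by less than 1 count, and control replicate 1 stood apart below the other controls. The means were 842 ± 84.7 and 964 ± 85.3, a log2 difference of 0.20 (SE 0.10). Under scaling to summed reads the difference was 0.35, and there Srp9 was called higher. Its partner Srp14 gave 1313 ± 38.0 and 1283 ± 56.5 with overlapping groups and a log2 difference of -0.03 (SE 0.07). Srp14 was also the steadiest member, with an SD of log2 values within groups of 0.053.

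Srp19, which binds the 7SL RNA and prepares it for SRP54, had counts of 478, 470, 473 and 466 in the controls and 461, 494, 431 and 417 in the libraries labelled knockout. The 4 controls lay close together (472 ± 5.22), and the groups overlapped. The log2 difference was -0.07 (SE 0.09), against -0.72 for the summed copies of the subunit that joins the particle after it. Its SD of log2 values within groups, 0.078, was above that of 1.59% of the genes with a mean of 50 to 500.

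Srp68 and Srp72 form a scaffold pair on the RNA, and only the first had groups that did not overlap. Whether they differed from each other was not tested. Srp68 had counts of 1658, 1726, 1571 and 1523 in the controls and 1387, 1226, 1420 and 1080 in the libraries labelled knockout. All controls lay above all other libraries, with means of 1619 ± 90.5 and 1279 ± 157 and a log2 difference of -0.35 (SE 0.10). Its call in the fit was lost when controls 1, 2 or 4 or knockouts 2 or 4 were left out, and under scaling to summed reads. Srp72 had overlapping groups, with means of 840 ± 51.5 and 850 ± 49.4 and a log2 difference of 0.02 (SE 0.08).

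Of the receptor genes, likewise, 1 had groups that did not overlap. Srpr encodes the receptor GTPase that pairs with SRP54. It had counts of 4335, 4439, 3937 and 4137 in the controls and 3549, 3003, 3249 and 2735 in the libraries labelled knockout. The groups were well apart, with means of 4212 ± 222 and 3134 ± 348 and a log2 difference of -0.43 (SE 0.09). Its call was lost under scaling to summed reads, where the difference was -0.28. Srprb, the membrane anchor of that receptor, had 343, 398, 336 and 266 against 373, 332, 388 and 331. Its groups overlapped, with means of 336 ± 53.9 and 356 ± 29.1 and a log2 difference of 0.10 (SE 0.13).

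**Figure D4:**
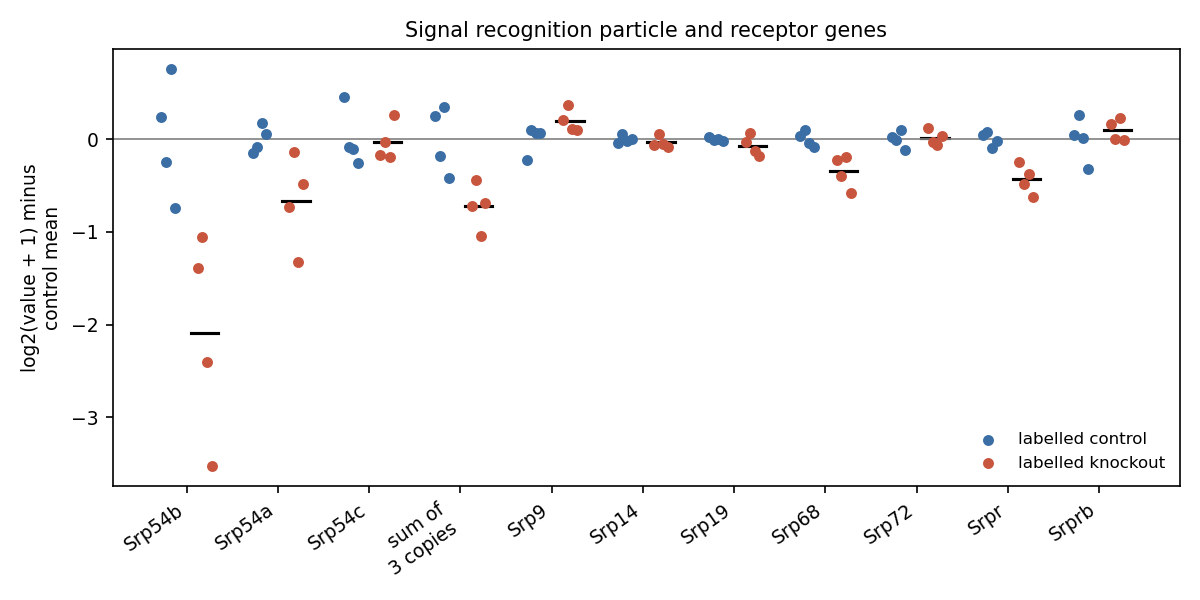
Value of each gene in each library as log2(value + 1) minus the mean of the controls (points), with the mean of the 4 knockout libraries as a black line. Srp54b reaches furthest down, with a mean of -2.09, while Srp9, Srp14, Srp19, Srp72 and Srprb lie within 0.20 of 0 on average.

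Over all 10 genes the median log2 difference was -0.05, with 7 below 0 and 3 above, beside a median of 0.00 over all genes tested. The 7 genes that are not Srp54 copies had a median of -0.03 and a range of -0.43 to 0.20. Among the 10, Srp54b, Srp68 and Srpr were called, all lower, beside 11.6% of all genes called lower. Groups did not overlap for these 3 (lower) and for Srp9 (higher), beside 13.4% and 11.7% of all genes (25.1% in either direction). Since the set was chosen on this contrast, nothing is read from those counts. Under scaling to summed reads Srp54c, Srp14 and Srp19 turned to 0.12, 0.12 and 0.08, all under the median of all genes of 0.15 there. Srp9 was called higher under that scaling, at 0.35, while Srp68 and Srpr lost their calls.

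Levels can be compared between genes only per length, and were taken as the normalised count per kilobase of annotated exon, averaged over the 8 libraries. Srpr (1092 ± 189 SD) and Srp14 (1086 ± 39.7) stood at the top and were ordered differently in the groups, Srpr being higher in 4 of 4 controls and in 1 of 4 libraries labelled knockout. Srp68 followed at 529 ± 79.5, then Srp9 at 163 ± 18.5 and Srp72 at 148 ± 8.22, whose ranges overlapped. Srp19 lay at 127 ± 6.98 and Srprb at 80.7 ± 9.70. The copies came last, Srp54c at 55.9 ± 10.4, Srp54b at 33.6 ± 26.7 and Srp54a at 12.5 ± 3.67. Srp54b ran from 4.10 to 83.7 per kilobase, and it lay below Srp54c in 7 of 8 libraries and above Srp54a in 7 of 8. The copies added per kilobase came to 125 ± 30.0 in the controls and 78.7 ± 11.7 in the libraries labelled knockout. Annotated exon lengths include transcripts that may not be used in the joint, so this order is approximate. If reads matching several copies were left uncounted, which is not given in the sources used here, most of the exon length of the copies could not have been counted, and their levels per kilobase would be understated. If such reads were counted in each copy instead, those levels would be overstated. Srpr overlaps Fam118b, Foxred1 and Tirap on the other strand, Srp9 overlaps Gm17968 on the other strand, and Srprb overlaps Gm20425 on its own strand. Whether the counting used strand is not given in the sources used here.

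The other genes of ER targeting and translocation showed no shared direction. Their lists were drawn up with earlier results of these data known, so the counts and p-values given for them are descriptions. Of 58 such genes named in 7 lists, 50 had a row and were tested, and 8 were called higher and 7 lower (30.0% called, beside 23.2% of all genes, and 11.6% in each direction), with a median log2 difference of 0.01. Under scaling to summed reads 16 were called higher and 2 lower. The count of 15 dropped to 7 when control 4 or knockout 4 was left out, to 8 without control 2 or knockout 1, and to 9 without knockout 2. The fibroblast, macrophage and muscle markers moved between the same libraries with the values given above, and their part was not tested.

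Routes into the ER that bypass the particle were lower where called. Of 9 genes tested, 4 were called, all lower (beside 11.6% of all genes), with a list median of -0.22. Bag6, which escorts tail-anchored proteins from the ribosome, had counts of 3420, 3773, 3227 and 3672 in the controls and 2390, 2290, 2524 and 2402 in the libraries labelled knockout. The groups were far apart, and Bag6 fell by 0.55 on the log2 scale (SE 0.08, limma, adjusted p = 0.0042), a call kept in all 17 alternatives. Asna1, the ATPase that delivers those proteins, fell from 764 ± 30.3 to 599 ± 67.8, and Ubl4a, a cofactor of Bag6, from 1245 ± 73.2 to 964 ± 146 (adjusted p = 0.0263 and 0.0325). Their calls were kept in 12 and 9 of 17 alternatives, and both were lost under scaling to summed reads.

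The channel itself and the sugar-transferring complex beside it were higher where called. Of 10 translocon genes 3 were called, all higher (beside 11.6% of all genes), with a list median of 0.35. Tram1, a membrane protein next to the channel, had counts of 428, 426, 594 and 436 in the controls and 778, 801, 699 and 1045 in the libraries labelled knockout. It rose by 0.82 on the log2 scale (SE 0.15, limma, adjusted p = 0.0076) and kept its call in 17 of 17 alternatives. Sec61a1, the channel's pore subunit, rose from 508 ± 104 to 839 ± 147 (adjusted p = 0.0164), although this call was lost without knockout replicate 4. Ssr2, a subunit of the translocon-associated complex, rose from 504 ± 68.7 to 695 ± 97.4 (adjusted p = 0.0333), a call kept in 11 of 17 alternatives.

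Of 12 oligosaccharyltransferase genes, whose products add N-glycans to chains in the channel, 5 were called, all higher (beside 11.6%), with a list median of 0.15. Tusc3, a subunit with oxidoreductase activity, had counts of 81.1, 78.7, 138 and 75.6 in the controls and 180, 230.1, 152 and 280 in the libraries labelled knockout. It rose by 1.17 on the log2 scale (SE 0.24, limma, adjusted p = 0.0111), with separate groups. Ddost rose from 866 ± 74.7 to 1170 ± 74.4 and Ostc from 408 ± 35.4 to 640.3 ± 133 (adjusted p = 0.0107 and 0.0162). Signal peptidase, which cuts off the signal sequence, had 0 of 5 genes called by limma, edgeR or DESeq2 and 1 at an unadjusted p under 0.05. That gene was Sec11a, a catalytic subunit, at 325 ± 20.7 and 403 ± 51.5 in groups that did not overlap (limma, adjusted p = 0.0757). Sec11a was called higher under scaling to summed reads only.

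The ER membrane protein complex, an insertase for membrane proteins, had 2 of 10 genes called, both lower (beside 11.6%), with a list median of -0.19. Emc1 went from 837 ± 62.2 to 651 ± 68.8 and Emc4 from 689 ± 76.5 to 522 ± 75.3 (limma, adjusted p = 0.0272 and 0.0414). These calls were kept in 10 and 8 of 17 alternatives, and both were lost under scaling to summed reads. Among 4 factors that bind nascent chains at the ribosome 1 was called. Naca, a subunit of the nascent polypeptide-associated complex, had 6057, 7116, 6693 and 7163 in the controls and 4812, 4068, 5161 and 4390 in the libraries labelled knockout. It fell by 0.55 on the log2 scale (SE 0.10, limma, adjusted p = 0.0072) and kept its call in all 17 alternatives. The 3 genes of the 7SL RNA are not analysed here.

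Position was not used to choose the genes, so the neighbours of the copies could be tested. Within 500 kb of the copies 20 other genes had a row and 13 were tested. Of these 2 were called higher and 4 lower, beside 23.2% of all genes called in either direction, with a median log2 difference of -0.20. Those called lower include 1700081N11Rik, which passed the filter on low values only through the controls. The count of 6 dropped to 1 when control 1, control 2, knockout 1 or knockout 2 was left out, to 2 without control 4 and to 3 without knockout 4. Under scaling to summed reads it was 3 higher and 1 lower.

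The genes nearest to the copies were not called. The tested gene next to Srp54a, 2700097O09Rik, ends 152 bases before it and had 262 ± 47.9 and 212 ± 38.5, a log2 difference of -0.31 (SE 0.17, limma, adjusted p = 0.210). Ppp2r3c, a phosphatase regulatory subunit and the nearest tested gene beyond Srp54c, 15.2 kb away, had 316 ± 11.3 and 275 ± 8.87 (-0.20, SE 0.09, adjusted p = 0.123). Between the copies the only tested gene was 1700047I17Rik2, which lies between Srp54b and Srp54c, with 46.1 ± 15.6 and 34.4 ± 14.6 in overlapping groups (-0.45, SE 0.34, adjusted p = 0.359). Fam177a, between Srp54a and Srp54b, had 0 to 4.35 in all libraries and was not tested.

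Genes called in this stretch lay on both sides and in both directions. On the side of Srp54a, Baz1a, a chromatin remodelling subunit, rose from 76.6 ± 19.0 to 126 ± 26.6 and Sptssa, a subunit of serine palmitoyltransferase, from 397 ± 23.8 to 524 ± 52.9 (limma, adjusted p = 0.0447 and 0.0207). Cfl2, the cofilin of skeletal muscle, fell from 6199 ± 746 to 4699 ± 320 (adjusted p = 0.0250). The RNA 1700081N11Rik, which overlaps the start of Cfl2, had low values of 13.1 to 16.2 and 2.99 to 7.04 and fell by 1.39 on the log2 scale (SE 0.38, adjusted p = 0.0272). On the side of Srp54c, 1110008L16Rik fell from 161 ± 18.2 to 109 ± 13.8 and Psma6, a proteasome subunit, from 1607 ± 86.8 to 1336 ± 104 (adjusted p = 0.0261 and 0.0436). Each of these 6 calls was lost when at least 1 library was left out.

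**Figure D5:**
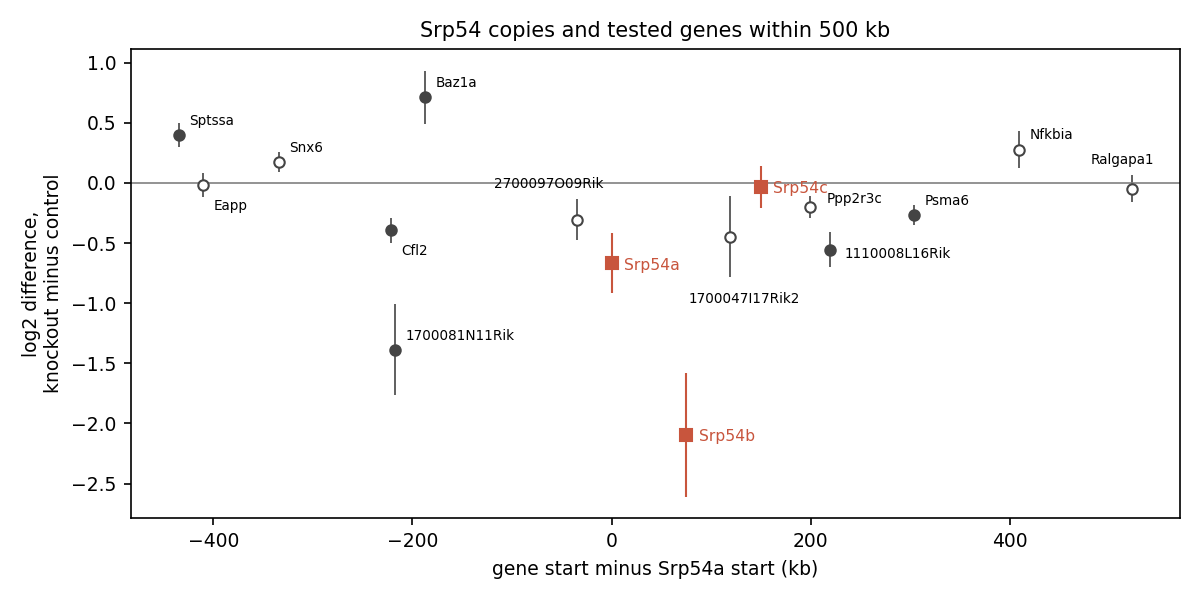
Log2 difference, knockout minus control, with its standard error (bars), of the Srp54 copies (squares) and of the 13 tested genes within 500 kb (circles, filled where called), against the distance in kb between each gene's start and that of Srp54a. Srp54b, at -2.09, lies below all 13 neighbours, which run from -1.39 to 0.71. The lowest of them, 1700081N11Rik, passed the filter on low values only through the controls.

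Across the 8 libraries, the genes most like Srp54b were looked for among 11643 genes with a mean of at least 50, by Pearson's r of log2 values. Gm10335 came first (r = 0.975), followed by Zfp553 (0.971), Reep1 (0.967), Rtca (0.963) and Svip (0.961). Their differences between the groups were smaller than that of Srp54b, from -0.59 for Gm10335 to -0.25 for Zfp553. The genes most like the sum of the copies were Limd1 (0.946), Pla2g7 (0.943) and Enpp5 (0.939). The 8 points include the difference between the groups, and these values are a description only.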

How the data were processed

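The authors deposited 1 normalised value per gene and library, a size-factor-scaled signal. Per the labels and the submitters' processing notes, reads were aligned to mm10 (HISAT2 is named), counted with featureCounts and normalised with DESeq2. Versions, annotation, strand and the handling of multiply matching reads are not given in the sources used here. In all 8 columns every value (100%) came out, within 0.01, as a whole number of steps of that column, and these numbers are the recovered reads. In control replicate 2 and knockout replicate 1 that step is close to 1, so it carries little information. Of the value columns 0 had no sample, and 12 gene names occurred more than once. Symbols were matched to GENCODE M21 (99.2% of rows).

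Genes that reached 10 in 4 or more libraries were tested on log2(value + 1) with limma 3.58.1 (lmFit, eBayes with trend, 1 group term) and Benjamini-Hochberg adjustment over all genes tested. Fold changes and standard errors are on that scale, which understates changes of low genes. edgeR 4.0.16 and DESeq2 1.42.0 on recovered reads were alternatives, calling 3324 and 4125 genes. The 4 replicates of each group were compared pairwise, and no pair agreed within sampling noise (a chi-square of 26.0 to 66.6 per degree of freedom, 12 pairs).

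The genes and lists were chosen with earlier results of these data known. Named are all 10 genes, up to 3 called genes of smallest p per list (the gene of smallest p where none was called), called neighbours within 500 kb and the nearest tested on each side, the 5 genes most like Srp54b and 3 most like the sum, and Loxl2. 1700047I17Rik2 and Fam177a were added after their values were seen. Srp54b was in the set for its fall in this contrast.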

Additional observations from a re-analysis of the deposited data

Results flagged for a closer look

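In control replicate 1 Srp9 had a value of 716, below the other 3 controls at 878 to 897. Its gap to the nearest control was 0.891 of the group's range, above the critical value for a group of 4. Chance gives about 1 such case in 20 groups, and 24 groups were looked at.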

How the results depend on the processing

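The log2 difference of the summed copies kept its sign under every alternative run for it, from -0.86 to -0.57. edgeR and DESeq2 were not run on the sum. The difference in the share of Srp54b lay between -27.9 and -20.1 percentage points when libraries were left out. The log2 difference of Srp54b lay between -2.44 and -1.62. These ranges support nothing further, since Srp54b was chosen on this contrast in these libraries and is part of the sum and the share. Leaving out 1 library at a time gave 1740 to 3832 called genes in place of 3461, 7 to 16 in place of 15 ER targeting and translocation genes, and 1 to 5 in place of 6 neighbours; of all genes, 1740 were called without knockout 4, 1909 without control 2 and 2209 without control 4. Whether the replicate numbers mark pairs is not given in the labels. Same-numbered libraries correlated at -0.23 to 0.21, with 1 of 4 pairs over 0.1, and so few values cannot decide it. With a replicate block limma called 2018 genes, 5 ER genes and 0 neighbours (6 at an unadjusted p under 0.05, against 5 neighbours called by edgeR and 6 by DESeq2 without the block), and of the 3 members called without it, it ended the call of Srp68. The cause of these moves was not tested. Among single genes 6 values moved by more than the spread and 164 did not. All 6 moved under scaling to summed reads, and they belong to Srp9, Srp14, Srp19, Srp68, Srp72 and Srpr. Depth limits Srp54b most in knockout replicate 4, where it rests on 21 reads.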
